A study of Danio rerio with 14 samples.

Results

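Transcripts of axon and vessel guidance genes were followed at the tip of zebrafish (Danio rerio) fin rays during regrowth. The genes were chosen by symbol, namely semaphorins (sema), plexins (plxn), neuropilins (nrp), Eph receptors (epha, ephb), ephrins (efna, efnb), robo, slit, netrin (ntn) and unc5 genes. The deposited table held 14836 genes. The symbols of 63 of them matched, and 61 had at least 1 TPM (each gene's share of all transcripts, corrected for gene length, with the sum fixed per library) in at least 2 libraries. The other 2, efna5b and unc5a, reached at most 0.573 and 0.266 TPM and were not tested. Just inside the limit stood sema6ba, with at least 1 TPM in 2 libraries, both of 3 dpa (days post amputation). It was thus kept only through the time where it was highest. It is in the counts, but its calls in contrasts with 3 dpa are no independent result. The pattern also took unc50, which is not a netrin receptor. It remains in all counts, and it passed no test.

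Guidance genes encode signals that attract or repel growing axons, vessels and migrating cells. Semaphorins signal through plexins, and the secreted semaphorins of class 3 mostly need a neuropilin as co-receptor. Ephrins sit on the cell surface and bind Eph receptor tyrosine kinases on a neighbouring cell, ephrin-A proteins through a lipid anchor and ephrin-B proteins through a membrane-spanning tail. Slit proteins are secreted ligands of Robo receptors, and netrins act through Dcc, neogenin and Unc5 receptors. In a regrowing fin, nerves, vessels, bone-forming cells and fibroblasts all extend into the new tissue.

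All fish were wild type, per the labels, and every library held tissue from a distal strip of about 250 µm per ray, pooled from 10 animals. There were 3 pools each on the day of amputation (0 dpa, days post amputation) and at 3, 7 and 10 dpa, and 2 pools at 14 dpa, 14 libraries in all. Samples labelled 3 dpa are described as taken at 3.5 days in the series' design. The strip at 0 dpa is tissue before regrowth and the later strips are new tissue, so time and tissue cannot be told apart, and p-values measure the spread between pools.

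The read depth behind the TPM values is unknown. Libraries of the same time correlated across 11272 genes at 0.953 to 0.991. On the second principal component, 20.3% of the variance, 4 libraries stood apart with scores of 27.2 to 47.9 against -31.0 to -0.236 in the other 10. From 0 dpa this was replicate 1, from 7 dpa replicate 2 and from 10 dpa replicates 2 and 3. In these 4 libraries fosb, an immediate early gene, was at 886 to 1700 TPM against 23.0 to 144 in the others, and 14 immediate early genes summed to 5320 to 9150 TPM against 2190 to 3650. Counts are also given without them. Shares of all genes given as background come from the main fit of all libraries only. Fibroblast and blastema markers were present in all libraries, and their summed level was 220 to 276 TPM at 0 dpa, 4600 to 5390 at 3 dpa, 2390 to 2720 at 7 dpa, 1480 to 1820 at 10 dpa and 762 to 822 at 14 dpa. Of these 13 markers 13 rose at 3 dpa. For comparison with this and the following counts, 35.0% of all genes tested rose at 3 dpa and 19.6% fell. Of 14 endothelial markers 11 rose and 1 fell, with a sum of 331 to 377 TPM at 0 dpa and 596 to 716 at 3 dpa. Superficial epidermis markers fell in 8 of 8, with a sum of 20000 to 28400 TPM at 0 dpa and 8570 to 11500 at 3 dpa. Of 9 osteoblast markers 6 rose, with a sum of 204 to 296 TPM at 0 dpa and 12800 to 13000 at 3 dpa. Of 11 markers of glia and nerve 5 rose and 6 fell, with a sum of 186 to 264 TPM at 0 dpa and 129 to 134 at 3 dpa. Markers fell in 6 of 9 for pigment cells, 5 of 8 for macrophages, 5 of 6 for lymphocytes, 3 of 4 for neutrophils, where 1 rose, and 3 of 8 for basal epidermis, where 1 rose. The neutrophil sum was nonetheless higher, at 149 to 269 TPM at 0 dpa and 371 to 545 at 3 dpa. Sums of the other types in this list were lower at 3 dpa, without overlap. No marker with a value was at 0 in every library. The part of these markers in the results below was not tested, and fewer cells of a type and less RNA per cell cannot be told apart in bulk tissue.

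At 3 dpa guidance genes were mostly higher than at 0 dpa. Of the 61 genes 30 rose and 4 fell, where 35.0% of all genes tested rose and 19.6% fell (limma, adjusted p under 0.05 over all 11272 genes). The members that rose made up 49.2% and those that fell 6.56%. Counts within single families, given below, rest on few genes and are a description only, to be read against the same shares. The median member was 0.80 higher on the log2(TPM + 1) scale and the median of all genes 0.24. When libraries were rescaled by the median of gene ratios, these medians were 0.63 and 0.02, and 28 rose and 5 fell. Leaving out the 4 libraries named above gave 34 higher and 4 lower. The 4 that fell were sema3bl, ntn2, efna1b and plxnb2b. Omitting 0 dpa replicate 1 or 0 dpa replicate 2 left 2 genes called lower, and omitting 3 dpa replicate 3 left 1.

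At 7 dpa 30 members were higher and 1, efna1b, lower, against a background of 21.5% and 9.07% of all genes. The call for efna1b at 7 dpa ended when any 1 of 5 libraries was omitted, all 3 of 0 dpa and replicates 1 and 3 of 7 dpa, with an adjusted p of 0.0506 to 0.146. Across all times (limma moderated F test) 35 members changed, 57.4%, with a background of 47.6%. At 10 dpa 24 were higher and 0 lower by limma, with a background of 14.0% and 2.73%. At an unadjusted p under 0.05 in limma 0 were lower too, but the share of all genes at that threshold is not given. All contrasts against 0 dpa share the same 3 libraries of that time. Mean levels were highest at 3 dpa in 24 members, at 7 dpa in 19, at 10 dpa in 10, at 14 dpa in 5 and at 0 dpa in 3. Over all genes tested the shares were 35.3%, 10.4%, 11%, 30.8% and 12.4%, and for the members 39.3%, 31.1%, 16.4%, 8.20% and 4.92%.

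**Figure D1:**
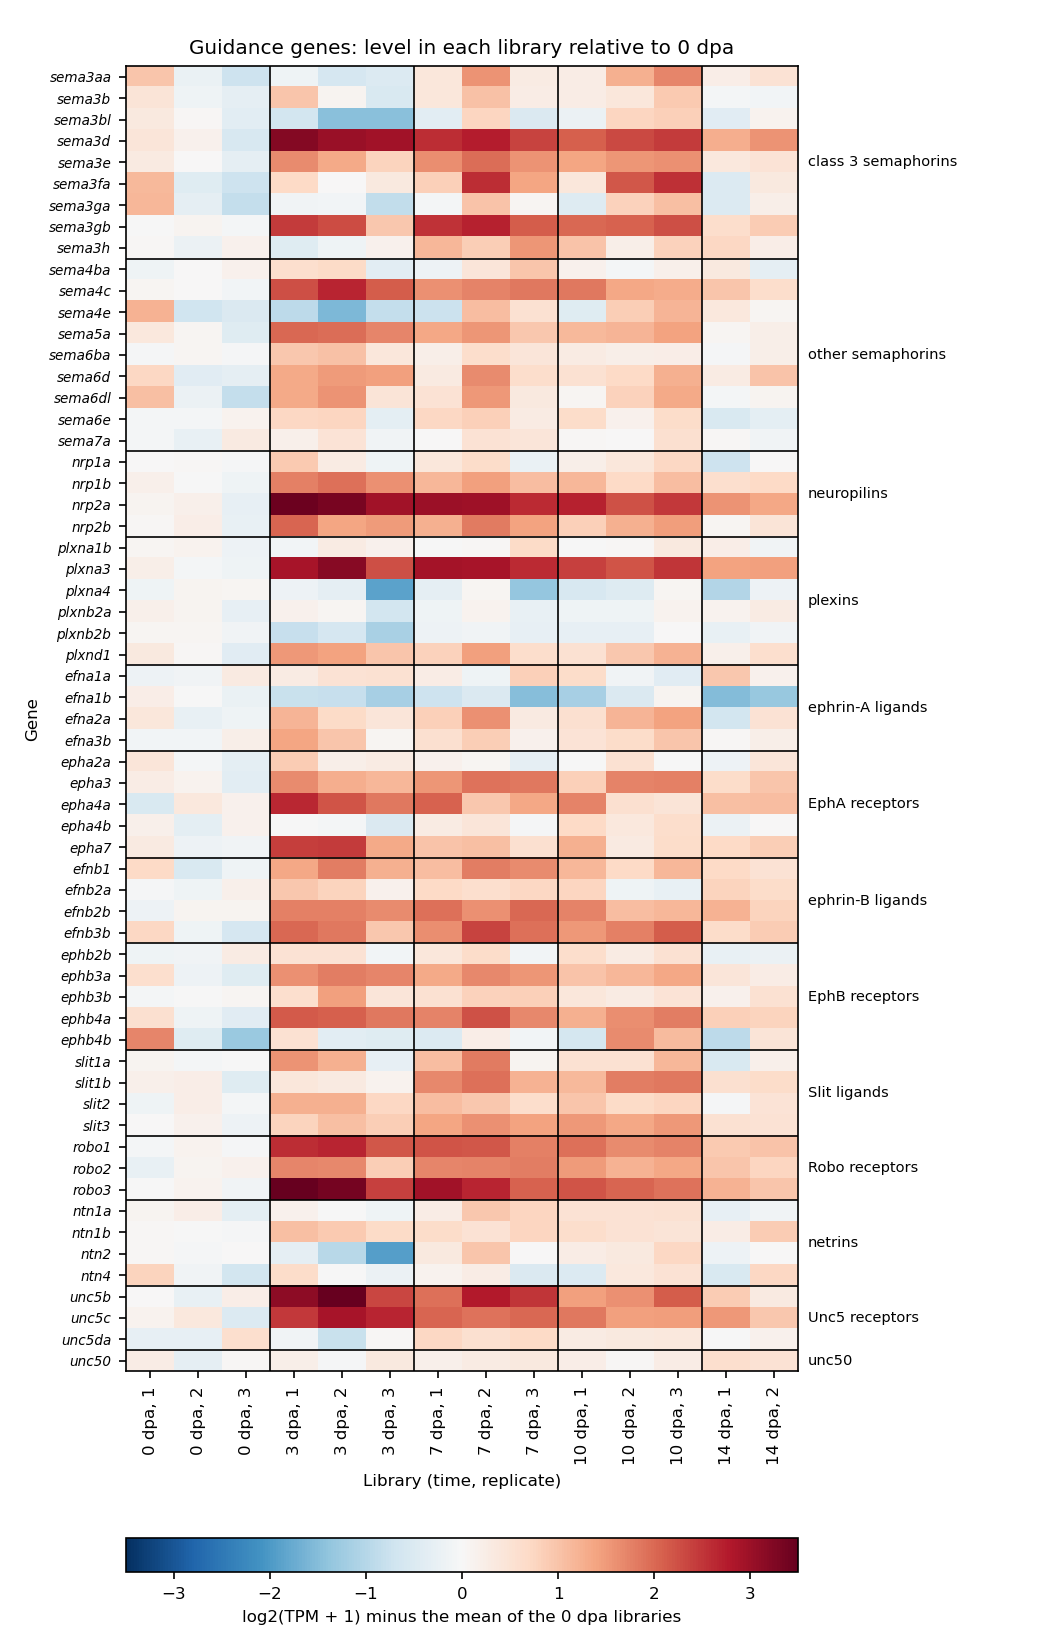
Level of each of the 61 genes (rows, grouped by family) in each of the 14 libraries (columns), as log2(TPM + 1) minus the mean of the 0 dpa libraries, with red for higher and blue for lower. By mean change, the strongest red at 3 dpa lies in nrp2a, robo3, sema3d, unc5b, plxna3, unc5c and robo1. At 7 dpa it is strongest in nrp2a, plxna3, sema3d and robo3, and it fades towards 14 dpa.

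Of 9 class 3 semaphorins 3 rose and 1 fell at 3 dpa, where 35.0% of all genes rose and 19.6% fell. Their median log2 change was 0.18, and that of all genes 0.24. Among them sema3d, which acts downstream of the connexin mutated in short fin fish during ray growth, had the largest change. It stood at 15.3, 12.5 and 7.30 TPM in the 0 dpa libraries, 113, 98.0 and 93.4 at 3 dpa, 71.9, 81.6 and 62.5 at 7 dpa, 51.3, 59.3 and 66.3 at 10 dpa and 28.3 and 35.2 at 14 dpa. Every library of regrowth lay above every 0 dpa library, and the 14 dpa libraries lay below all others of regrowth. The log2 change at 3 dpa was 3.06 ± 0.22 (adjusted p = 2.39e-07), an 8.65-fold ratio of mean TPM. Its share of the summed class 3 level went from 7.32% at 0 dpa to 32.7% at 3 dpa and 16.3% at 14 dpa (means over libraries).

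The ligand gene sema3e, whose mammalian product binds plexin D1 without a neuropilin, was highest later. It was at 44.5, 35.9 and 28.8 TPM at 0 dpa, 114, 92.1 and 61.7 at 3 dpa, 113, 142 and 109 at 7 dpa, 94.2, 106 and 111 at 10 dpa and 46.3 and 50.1 at 14 dpa. Libraries from 3 to 10 dpa did not overlap with those at 0 dpa, and the 14 dpa libraries lay just above them. The changes were 1.25 ± 0.21 at 3 dpa and 1.72 ± 0.21 at 7 dpa (adjusted p = 0.00032 and 5.95e-05).

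In sema3gb the 0 dpa libraries were close together, at 7.76, 8.58 and 7.43 TPM, and those at 3 dpa spread from 16.0 to 47.9. The gene was at 50.7, 56.2 and 37.4 TPM at 7 dpa, 35.2, 36.3 and 41.9 at 10 dpa and 12.7 and 15.6 at 14 dpa. All libraries of regrowth exceeded those at 0 dpa, and the largest change was at 7 dpa, 2.44 ± 0.32 (adjusted p = 9.22e-05).

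Other members of class 3 behaved differently. The gene sema3bl was called lower at 3 dpa, at 3.09 ± 1.45 TPM against 8.11 ± 2.19 at 0 dpa (SD, n = 3 each, log2 change -1.18 ± 0.38, adjusted p = 0.0200). Omitting 0 dpa replicate 1 or 2, or 3 dpa replicate 2 or 3, ended the call with an adjusted p of 0.0635, 0.0533, 0.0700 and 0.0712. The low gene sema3h rose at 7 dpa from 0.696 ± 0.203 to 2.93 ± 0.957 TPM (1.19 ± 0.25, adjusted p = 0.00335). For sema3aa, sema3b, sema3fa and sema3ga no contrast passed, and sema3fa spread from 14.5 to 50.4 TPM within 7 dpa, with the highest value in a library that stands apart.

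Of the 9 other semaphorins, which are bound to the membrane, 4 rose at 3 dpa, near the 35.0% of all genes that rose. The most abundant was sema5a, a transmembrane semaphorin with thrombospondin repeats, at 73.4, 58.6 and 41.3 TPM at 0 dpa, 230, 222 and 186 at 3 dpa, 145, 166 and 110 at 7 dpa, 124, 130 and 151 at 10 dpa and 59.1 and 65.5 at 14 dpa. The 14 dpa values lay within the range of 0 dpa. The change was 1.89 ± 0.20 at 3 dpa (adjusted p = 6.96e-06) and -1.75 ± 0.22 from 3 to 14 dpa (adjusted p = 7.4e-05).

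The gene sema4c, which encodes a ligand of plexin B2 in mammals, was at 8.91, 8.38 and 7.83 TPM at 0 dpa, 43.9, 58.0 and 39.8 at 3 dpa, 27.3, 30.4 and 32.7 at 7 dpa, 32.6, 23.1 and 22.1 at 10 dpa and 17.3 and 13.3 at 14 dpa. The 3 dpa libraries lay above all others, with a change of 2.35 ± 0.19 (adjusted p = 6.7e-07). The transmembrane semaphorin gene sema6d rose from 1.95 ± 1.41 to 6.34 ± 0.407 TPM (SD, n = 3 each, 1.41 ± 0.37, adjusted p = 0.00678). The low gene sema6ba was at 0.0899 ± 0.0392 and 0.914 ± 0.420 TPM (0.79 ± 0.17, adjusted p = 0.0018). It passed the filter only through 2 libraries of 3 dpa, so this call is no independent result. For sema4ba, sema4e, sema6dl, sema6e and sema7a no contrast passed.

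Neuropilin genes rose in 3 of 4 cases at 3 dpa, with a background of 35.0% of all genes. On the log2(TPM + 1) scale the largest change at 3 dpa was in nrp2a, a co-receptor for class 3 semaphorins and for vascular growth factors. It was at 15.6, 16.7 and 11.8 TPM at 0 dpa, 168, 154 and 119 at 3 dpa, 123, 120 and 93.9 at 7 dpa, 99.0, 72.3 and 86.2 at 10 dpa and 44.9 and 39.0 at 14 dpa. No library of regrowth overlapped with 0 dpa, and both 14 dpa libraries lay below all from 3 to 10 dpa. The ratio of mean TPM at 3 dpa was 10.0, below those of unc5b (12), robo3 (10.6) and the low gene sema6ba (10.2). The log2 change of nrp2a was 3.24 ± 0.18 at 3 dpa (adjusted p = 3.18e-08) and still 1.46 ± 0.20 at 14 dpa (adjusted p = 0.00121).

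Its duplicate nrp2b started higher, at 37.5, 42.4 and 29.8 TPM at 0 dpa, and stood at 151, 96 and 104 at 3 dpa, 86.6, 130 and 96.9 at 7 dpa, 65.8, 87.7 and 102 at 10 dpa and 37.9 and 50.1 at 14 dpa. Its 14 dpa libraries overlapped with 0 dpa, and the change at 3 dpa was 1.64 ± 0.23 (adjusted p = 6.4e-05). The gene nrp1b rose from 7.74 ± 1.01 to 28.5 ± 3.31 TPM at 3 dpa (SD, n = 3 each, 1.75 ± 0.17, adjusted p = 3.75e-06), and nrp1a gave 0.35 (adjusted p = 0.320). The share of nrp1a in the summed neuropilin level was 32.8% at 0 dpa and 11.3% at 3 dpa, and that of nrp2a 16.7% and 44.5%.

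Of 6 plexins, the signalling receptors for semaphorins, 2 rose and 1 fell at 3 dpa, near the 35.0% and 19.6% of all genes. The gene plxna3 was at 4.73, 3.72 and 3.48 TPM at 0 dpa, 35.5, 43.6 and 22.8 at 3 dpa, 35.9, 35.8 and 29.2 at 7 dpa, 24.8, 21.9 and 27.0 at 10 dpa and 12.2 and 12.3 at 14 dpa. All libraries of regrowth exceeded 0 dpa, with changes of 2.77 ± 0.21 at 3 dpa (adjusted p = 4.46e-07) and 1.42 ± 0.24 at 14 dpa (adjusted p = 0.00378). The gene plxnd1, whose product is a vessel guidance receptor, rose from 18.2 ± 4.81 to 46.0 ± 9.15 TPM at 3 dpa (SD, n = 3 each, 1.30 ± 0.27, adjusted p = 0.00123).

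By contrast plxnb2b was lower at 3 dpa, with libraries at 11.9, 13.8 and 9.30 TPM against 22.7, 22.3 and 19.4 at 0 dpa (-0.84 ± 0.16, adjusted p = 0.000954). It was the only member called higher at 14 than at 3 dpa (0.63 ± 0.18, adjusted p = 0.0176), but omitting 3 dpa replicate 3 gave an adjusted p of 0.0551, and omitting either 14 dpa library 0.0607 and 0.123. The most abundant plexin gene, plxnb2a, had 141 ± 23.3 TPM at 0 dpa against 131 ± 35.7 at 3 dpa, and no contrast passed for it, plxna1b or plxna4. Summed plexin levels were 254 ± 33.4 TPM at 0 dpa and 285 ± 64.0 at 3 dpa, while all semaphorins together went from 164 ± 69.4 and 187 ± 78.0 (class 3 and others) to 321 ± 85.4 and 403 ± 70.5.

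**Figure D2:**
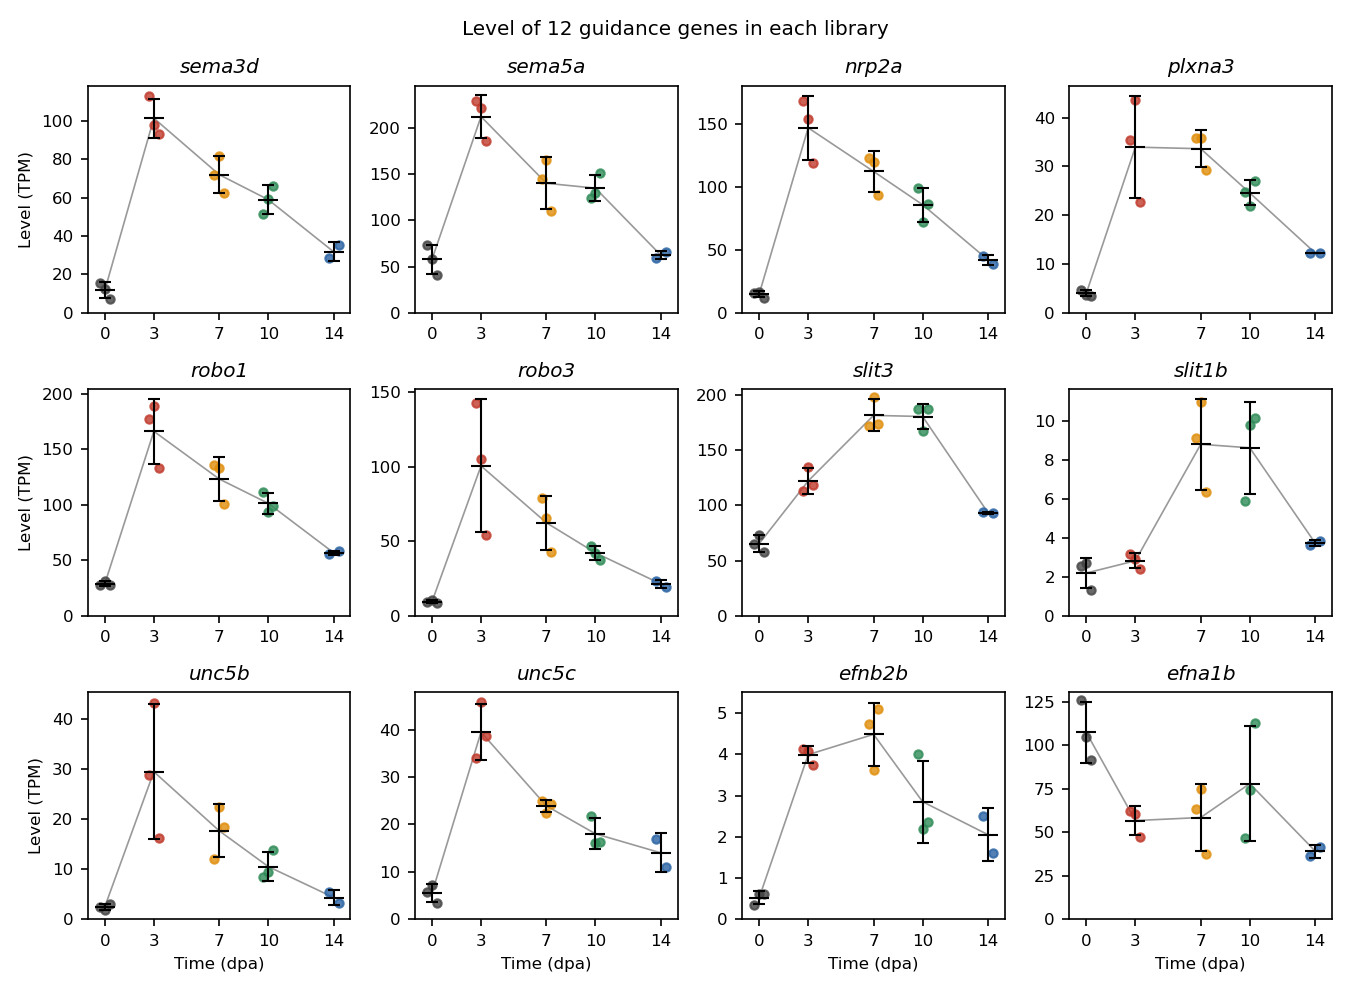
Level in TPM (vertical axis, from 0) against days post amputation for 12 genes, with 1 point per library and bars for the mean ± SD (n = 3, and 2 at 14 dpa), means joined by a line. The semaphorin, neuropilin, Robo and Unc5 genes peak at 3 dpa, plxna3 and efnb2b are similar at 3 and 7 dpa, slit3 and slit1b are highest at 7 and 10 dpa, and efna1b is highest at 0 dpa.

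Of the Slit and Robo genes, all 3 receptors and 2 of 4 ligands rose at 3 dpa, where 35.0% of all genes rose. The receptor gene robo1 was at 27.7, 31.3 and 27.8 TPM at 0 dpa, 177, 189 and 133 at 3 dpa, 136, 133 and 101 at 7 dpa, 112, 93.4 and 98.8 at 10 dpa and 55.5 and 58.2 at 14 dpa. The 0 dpa libraries were close together and far below all later ones. The change was 2.47 ± 0.15 at 3 dpa (adjusted p = 7.59e-08) and -1.52 ± 0.17 from 3 to 14 dpa (adjusted p = 2.8e-05).

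The related receptor gene robo3 rose more but varied more at its peak. It stood at 9.45, 10.5 and 8.57 TPM at 0 dpa, 143, 105 and 54.0 at 3 dpa, 78.8, 65.8 and 42.9 at 7 dpa, 47.0, 42.2 and 37.8 at 10 dpa and 23.5 and 19.4 at 14 dpa, with a change at 3 dpa of 3.17 ± 0.30 (adjusted p = 2.73e-06). All libraries of regrowth exceeded 0 dpa, and 3 dpa replicate 3 fell within the range of 7 dpa. The gene robo2 rose from 11.8 ± 1.85 to 34.2 ± 10.4 TPM at 3 dpa and was at 41.5 ± 0.983 at 7 dpa (SD, n = 3 each, changes of 1.43 ± 0.21 and 1.75 ± 0.21, adjusted p = 0.000109 and 5.11e-05).

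Among the secreted ligands, slit3 was the most abundant. It was at 65.3, 72.9 and 57.7 TPM at 0 dpa, 113, 135 and 118 at 3 dpa, 172, 198 and 174 at 7 dpa, 187, 167 and 187 at 10 dpa and 94.0 and 92.6 at 14 dpa. Libraries at 7 and 10 dpa lay above all at 3 dpa. The changes from 0 dpa were 0.89 ± 0.12 at 3 dpa and 1.46 ± 0.12 at 7 dpa (adjusted p = 4.19e-05 and 1.66e-06).

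The low ligand gene slit1b was at 2.57, 2.70 and 1.34 TPM at 0 dpa and 3.17, 2.90 and 2.43 at 3 dpa, where it gave 0.29 (adjusted p = 0.354). It then stood at 9.13, 11 and 6.35 at 7 dpa, 5.92, 9.81 and 10.2 at 10 dpa and 3.62 and 3.87 at 14 dpa. The 0 and 3 dpa libraries overlapped, and those at 7 and 10 dpa lay above both (1.62 ± 0.25 and 1.59 ± 0.25 against 0 dpa, adjusted p = 0.000376 and 0.000705). The gene slit2 rose from 43.2 ± 6.35 to 92.2 ± 18.3 TPM at 3 dpa (SD, n = 3 each, 1.07 ± 0.20, adjusted p = 0.000574), and slit1a passed in no contrast.

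Of the 3 Unc5 receptors 2 rose at 3 dpa, and of the 4 netrins 1 rose and 1 fell. The background was 35.0% of all genes higher and 19.6% lower. The receptor gene unc5b, which in mammals marks sprouting vessels, was at 2.5, 1.89 and 3.01 TPM at 0 dpa, 28.9, 43.3 and 16.3 at 3 dpa, 12, 22.5 and 18.5 at 7 dpa, 8.38, 9.35 and 13.8 at 10 dpa and 5.37 and 3.27 at 14 dpa. All libraries of regrowth exceeded 0 dpa, though 1 at 14 dpa only slightly. The change was 3.05 ± 0.34 at 3 dpa (adjusted p = 1.01e-05) and the fall from 3 to 14 dpa the largest of all members, -2.45 ± 0.38 (adjusted p = 0.000282).

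Its relative unc5c stood at 5.81, 7.16 and 3.48 TPM at 0 dpa, 34.0, 45.8 and 38.8 at 3 dpa, 25.0, 22.5 and 24.3 at 7 dpa, 21.8, 16.0 and 16.3 at 10 dpa and 16.9 and 11.1 at 14 dpa. The times from 3 to 7 dpa did not overlap with each other or with 0 dpa (2.68 ± 0.23 at 3 dpa, adjusted p = 1.33e-06). For unc5da no contrast passed.

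The netrin ligand genes were low. In ntn2 the libraries were at 5.81, 5.40 and 5.69 TPM at 0 dpa and 4.38, 2.38 and 0.749 at 3 dpa (-1.07 ± 0.35, adjusted p = 0.0201), a call that ended at 0.0893 when 3 dpa replicate 3 was omitted. The gene ntn1a was at 6.58 ± 1.46 TPM at 0 dpa, 6.52 ± 0.786 at 3 dpa and 11 ± 2.71 at 7 dpa (SD, n = 3 each, 0.65 ± 0.20 at 7 dpa, adjusted p = 0.0290). Omitting 0 dpa replicate 3 or 7 dpa replicate 2 or 3 raised the adjusted p to 0.125, 0.108 and 0.0840, omitting the 4 libraries that stand apart to 0.109, and rescaling to 0.0972. Its duplicate ntn1b rose from 0.225 ± 0.0394 to 1.25 ± 0.296 TPM at 3 dpa (0.87 ± 0.17, adjusted p = 0.000831), and ntn4, a netrin that binds laminin, passed in no contrast (0.13 at 3 dpa, adjusted p = 0.804).

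The balance of receptors to ligands was followed as the ratio of summed TPM within a library, which does not depend on scaling between libraries. Robo genes over Slit genes gave 0.429, 0.421 and 0.481 at 0 dpa, 1.57, 1.35 and 1.08 at 3 dpa, 0.911, 0.787 and 0.748 at 7 dpa, 0.684, 0.659 and 0.604 at 10 dpa and 0.730 and 0.611 at 14 dpa. The 3 dpa ratios exceeded all others and the 0 dpa ratios were the lowest. Unc5 over netrin genes gave 0.402 to 0.688 at 0 dpa, 2.78 to 5.58 at 3 dpa, 1.44 to 2.10 at 7 dpa, 1.08 to 1.51 at 10 dpa and 0.706 and 1.68 at 14 dpa. This ratio leaves out the other netrin receptors, Dcc and neogenin. The neogenin gene neo1a alone averaged 39.4 and 135 TPM at 0 and 3 dpa, against 10 and 70.5 for the summed Unc5 genes. Neuropilins over class 3 semaphorins gave 0.374 to 0.696 at 0 dpa, 0.988 to 1.16 at 3 dpa and 0.529 to 0.750 at all later times. Plexins over all semaphorins ran the other way, with 0.535 to 0.921 at 0 dpa, 0.336 to 0.455 from 3 to 10 dpa and 0.731 and 0.738 at 14 dpa. These ratios are given as a description, and their changes were not tested.

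Of 4 ephrin-A genes 1 rose and 1 fell at 3 dpa, near the 35.0% and 19.6% of all genes, with a median log2 change of 0.60. The most abundant at 0 dpa, efna1b, was at 126, 105 and 91.4 TPM, and it stood at 62.2, 60.7 and 47.3 at 3 dpa, 63.5, 74.8 and 37.2 at 7 dpa, 46.9, 74.1 and 113 at 10 dpa and 36.5 and 41.8 at 14 dpa. All libraries at 3, 7 and 14 dpa lay below 0 dpa, and 10 dpa overlapped with it. The changes were -0.91 ± 0.30 at 3 dpa and -1.42 ± 0.34 at 14 dpa (adjusted p = 0.0217 and 0.0201). With 0 dpa replicate 1 or 2, or 3 dpa replicate 3, omitted, the adjusted p at 3 dpa was 0.0669, 0.0512 and 0.0801. At 14 dpa it was 0.0598 with 0 dpa replicate 2 omitted and 0.168 and 0.0889 with either 14 dpa library omitted. The low gene efna3b was called higher at 3 dpa (0.80 ± 0.29, adjusted p = 0.0344), although the groups overlapped. Omitting 1 library (0 dpa replicate 1 or 2, 3 dpa replicate 1 or 2) gave 0.0803, 0.0945, 0.156 and 0.1, and omitting the 4 libraries that stand apart 0.0772. For efna1a and efna2a no contrast passed.

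EphA receptors rose in 3 of 5 cases at 3 dpa, with a background of 35.0% of all genes, but not the dominant one. The gene epha2a, a receptor of epithelia, made up 92.6% of the summed EphA level at 0 dpa and 79.4% at 3 dpa, and its 245 ± 67.8 and 337 ± 90.5 TPM (SD, n = 3 each) did not differ by the test (0.46, adjusted p = 0.136). The receptor gene epha4a, whose mammalian product binds ephrins of both classes, was at 5.27, 10.8 and 9.08 TPM at 0 dpa, 55.2, 40.6 and 31.3 at 3 dpa, 36.7, 16.6 and 22.2 at 7 dpa, 29.0, 12.5 and 11.3 at 10 dpa and 17.8 and 18.1 at 14 dpa. The 3 dpa libraries exceeded those at 0 dpa and overlapped with 7 dpa, and the change was 2.22 ± 0.37 (adjusted p = 0.00031).

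The gene epha7 stood at 10.7, 7.23 and 7.57 TPM at 0 dpa, 49.2, 50.5 and 22.7 at 3 dpa, 17.9, 18.6 and 12.9 at 7 dpa, 21.3, 10.7 and 13.6 at 10 dpa and 14.1 and 16.0 at 14 dpa. Its 3 dpa libraries lay above all others (2.07 ± 0.31, adjusted p = 0.000128). The low gene epha3 rose from 0.832 ± 0.386 to 3.70 ± 0.874 TPM at 3 dpa and was at 5.17 ± 0.795 at 7 dpa (SD, n = 3 each, 1.37 ± 0.27 and 1.77 ± 0.27, adjusted p = 0.000879 and 0.000293).

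Ephrin-B genes rose in 3 of 4 cases at 3 dpa, and the same 3 were called at 7 and 10 dpa, contrasts that share the 0 dpa libraries. Of all genes 35.0%, 21.5% and 14.0% were higher at these times. The gene efnb2b, a duplicate of the arterial ephrin-B2, was at 0.337, 0.607 and 0.604 TPM at 0 dpa, 4.14, 4.09 and 3.75 at 3 dpa, 4.74, 3.62 and 5.10 at 7 dpa, 4, 2.18 and 2.37 at 10 dpa and 2.5 and 1.60 at 14 dpa. No library of regrowth overlapped with 0 dpa, and those at 3 and 7 dpa overlapped (1.72 ± 0.20 at 3 dpa, adjusted p = 1.62e-05). The gene efnb3b rose from 3.71 ± 2.22 to 13.0 ± 4.85 TPM at 3 dpa and 16.6 ± 4.63 at 7 dpa (SD, n = 3 each, 1.60 ± 0.35 and 1.97 ± 0.35, adjusted p = 0.00203 and 0.00105). For efnb1 the levels were 3.37 ± 1.98 TPM at 0 dpa and 10.4 ± 2.37 at 3 dpa (1.46 ± 0.30, adjusted p = 0.00137). The call of efnb1 at 10 dpa (adjusted p = 0.0364) was lost under 10 of 23 alternatives. The adjusted p was 0.0649 with the replicate block, 0.0547 with a pseudocount of 5, 0.108 with only the libraries compared, 0.165 and 0.123 with 0 dpa replicate 2 or 3 omitted, and 0.0877 and 0.123 with 10 dpa replicate 1 or 3 omitted.

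EphB receptors rose in 3 of 5 cases at 3 dpa, with a background of 35.0% of all genes. The gene ephb4a, a duplicate of the venous receptor for ephrin-B2, was at 15.7, 9.32 and 7.63 TPM at 0 dpa, 49.8, 47.8 and 40.4 at 3 dpa, 36.7, 52.1 and 35.7 at 7 dpa, 26.0, 34.5 and 38.6 at 10 dpa and 19.5 and 18.5 at 14 dpa. All libraries of regrowth exceeded 0 dpa, and the change at 3 dpa was 2.03 ± 0.24 (adjusted p = 1.8e-05). Its duplicate ephb4b was more abundant and far more scattered, at 259, 58.2 and 31.6 TPM at 0 dpa and 50.8, 251 and 170 at 10 dpa. The highest values were in libraries that stand apart.

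The gene ephb3a rose from 8.51 ± 3.67 to 28.5 ± 1.96 TPM at 3 dpa and was at 10.5 ± 0.840 at 14 dpa (SD, n = 3, 3 and 2, change at 3 dpa 1.70 ± 0.23, adjusted p = 4.82e-05). The duplicate ephb3b gave 0.81 ± 0.23 (adjusted p = 0.0114, and 0.0597 with rescaled libraries), and ephb2b passed in no contrast. The ratio of EphA over ephrin-A levels was 1.61 to 2.21 at 0 dpa and 3.55 to 5.35 at 3 dpa, and that of EphB over ephrin-B 7.43 to 16.7 and 4.90 to 6.25, both without overlap between these times.

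Many zebrafish guidance genes exist as duplicated pairs, and 11 pairs had both genes among the members. Whether the genes of a pair changed differently was tested on the log2 ratio of their levels within each library, fitted over all 1029 pairs of symbols that differ in a final a or b. At 3 dpa 9 of the 11 ratios had moved, with a background of 52.6% of all pairs. At any time (limma moderated F test) 8 had moved, with a background of 43.9%. Both shares exceed the background, but with 11 pairs no more is read from them.

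The gene ending in a gained on its partner in 5 of the 9 and lost in 4. The largest shifts at 3 dpa were in epha4a over epha4b by 2.41 ± 0.40, ephb4a over ephb4b by 2.13 ± 0.57 and nrp2a over nrp2b by 1.60 ± 0.27 (adjusted p = 0.000371, 0.00751 and 0.000388). In the other direction, sema3ga over sema3gb moved by -2.26 ± 0.49, nrp1a over nrp1b by -1.40 ± 0.28 and efnb2a over efnb2b by -1.10 ± 0.21 (adjusted p = 0.00213, 0.00133 and 0.000822). In the nrp2 pair the mean log2 ratio went from -1.26 ± 0.04 at 0 dpa to 0.34 ± 0.29 at 3 dpa (SD, n = 3 each), so the order of these duplicates reversed. Smaller shifts were those of plxnb2a over plxnb2b (0.70 ± 0.16), ntn1a over ntn1b (-0.87 ± 0.22) and ephb3a over ephb3b (0.89 ± 0.30). With a pseudocount of 5 the efnb2 and ntn1 pairs no longer passed (adjusted p = 0.231 and 0.146). The ephb3 pair (adjusted p = 0.0251) lost its call when 1 library was omitted (0 dpa replicate 2 or 3, 3 dpa replicate 1 or 3, giving 0.0801, 0.107, 0.0723 and 0.101), and with the replicate number as a block over the 0 and 3 dpa libraries (0.0649). The efna1 and slit1 pairs gave 1.35 and 0.56 (adjusted p = 0.0727 and 0.269).

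**Figure D3:**
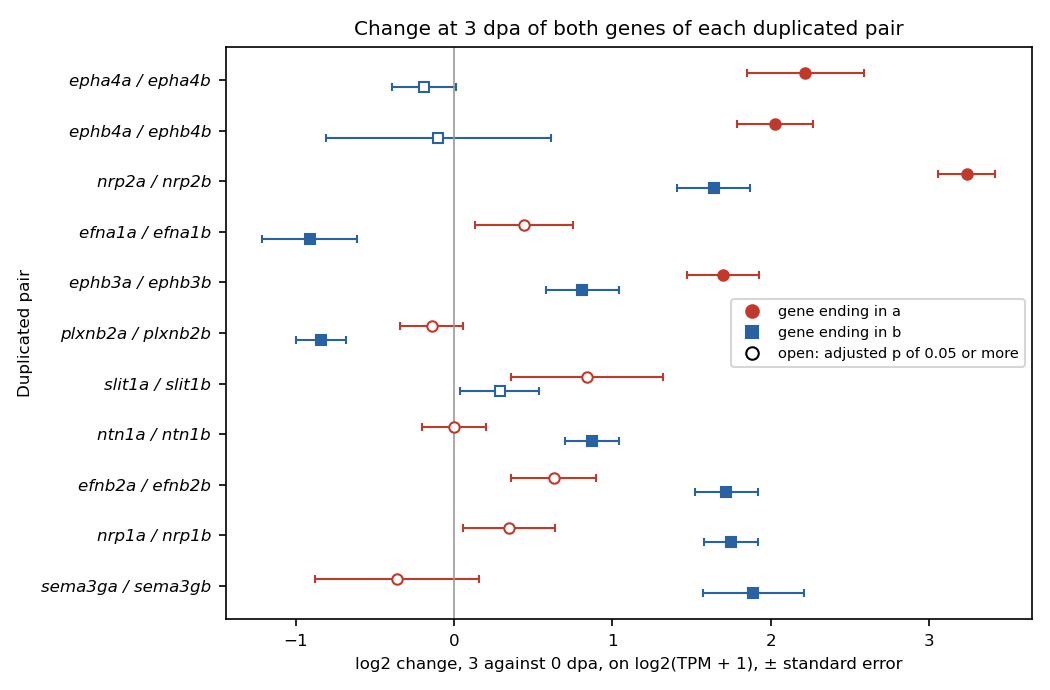
Change from 0 to 3 dpa (horizontal axis, log2(TPM + 1) scale, ± standard error) of both genes of each of 11 duplicated pairs, circles for the gene ending in a and squares for the gene ending in b, filled where the gene itself passed the test. In the epha4, ephb4 and nrp2 pairs the gene ending in a lies to the right, and in the sema3g, nrp1 and efnb2 pairs the gene ending in b.

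By 14 dpa most of the rise was gone. Against 0 dpa 9 members (14.8%) were still called higher and 1 (1.64%), efna1b, lower, with a background of 10.1% and 1.08% of all genes. At an unadjusted p under 0.05 in limma 18 were higher and 1 lower, but the share of all genes at that threshold is not given. Only 2 libraries stand behind 14 dpa, so a member not called there may still differ. The median member was 0.34 higher and the median gene 0.30. With rescaled libraries 3 were higher and 1 lower, a share of 75.0% higher in place of 90.0%. Omitting either 14 dpa library lowered the count of higher genes, but it leaves a lone library assumed to vary like the other times. Without the 4 libraries that stand apart the count was 17. The share of all genes called in these other fits is not given, so their counts have no background. The call at 14 dpa was lost under 14 of 23 alternatives for robo2, 9 of 23 for sema4c and 7 of 23 for slit3. It was lost under 5 of 22 for efnb2b and 4 of 23 for unc5c. With rescaled libraries the adjusted p in limma was 0.27 for robo2, 0.227 for sema4c, 0.509 for slit3 and 0.0685 for both efnb2b and unc5c. The calls of nrp2a and plxna3 at 14 dpa passed under every alternative tried. That of sema3d (1.41 ± 0.25, adjusted p = 0.0048) ended with 14 dpa replicate 2 omitted (adjusted p = 0.0592) and when only the 0 and 14 dpa libraries were fitted (0.0734). For robo1 (0.95 ± 0.17, adjusted p = 0.0059) it ended with rescaled libraries (0.0877) and with either 14 dpa library omitted (0.0579 and 0.0571).

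From 3 to 14 dpa 22 members fell and 1 rose, where 14.3% of all genes fell and 19.8% rose. This contrast shares the 3 dpa libraries with that of 3 against 0 dpa. The median member changed by -0.57 and the median gene by 0.05. Without 14 dpa replicate 1 the count of fallen members was 14. Besides unc5b, the change was -2.07 ± 0.34 in robo3 (adjusted p = 0.000417), followed by nrp2a at -1.77 ± 0.20, sema5a at -1.75 ± 0.22, sema3d at -1.65 ± 0.25 and sema4c at -1.56 ± 0.21. The fibroblast and blastema markers fell in 13 of 13 over the same interval, and the superficial epidermis markers rose in 6 of 8. Endothelial markers fell in 6 of 14 and rose in 1, and osteoblast markers fell in 4 of 9 and rose in 2. Markers rose in 7 of 9 for pigment cells, 6 of 8 for macrophages, 4 of 6 for lymphocytes and 3 of 4 for neutrophils. Basal epidermis markers rose in 3 of 8 and fell in 1. Markers of glia and nerve rose in 6 of 11 and fell in 3. The part of these markers in the fall of members was not tested.

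Other genes of the same pathways, outside the chosen symbols, were counted in lists of known partners and effectors. Of 32 co-receptors and other partners tested, 17 rose and 3 fell at 3 dpa, with a median of 0.67, where 35.0% of all genes rose, 19.6% fell and the median was 0.24. The largest changes were in gpc1a and gpc1b, glypicans that bind Slit in mammals (3.54 ± 0.32 and 2.12 ± 0.18), the receptor kinase gene ret (2.61 ± 0.27) and flrt3, a partner of Unc5 receptors in mammals (2.24 ± 0.19). The netrin receptor gene dcc and the neogenin gene neo1a, singled out after their values were seen, had means of 0.225 and 1.91 TPM and of 39.4 and 135 TPM at 0 and 3 dpa (changes of 1.23 ± 0.21 and 1.75 ± 0.15). Of 45 cytoplasmic effectors 19 rose and 9 fell, with a median of 0.39, near those shares of all genes. They included pak1, a kinase activated by Rac and Cdc42 (4.25 ± 0.24), dpysl5a and dpysl2b of the collapsin response mediator family (3.64 ± 0.28 and 2.07 ± 0.18) and the actin regulator vaspa (-2.33 ± 0.31). Leaving out the 4 libraries that stand apart gave 18 and 3 partners, and 22 and 10 effectors. All genes named here passed in limma, with an adjusted p under 0.05.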

How the data were processed

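The authors deposited TPM per gene symbol, with every library scaled to the same total. Trim Galore 0.6.7, cutadapt 3.5, Salmon 1.4.0 and danRer11 appear, per the submitters' processing notes. No source used here says how transcripts were summed. Salmon divides reads of similar genes by estimation, so duplicated pairs are less certain. The filter of 1 TPM in 2 of 14 libraries left 11272 genes. On log2(TPM + 1), limma 3.58.1 in R 4.3.3 estimated 1 mean for each time, with a variance trend for genes and none for pair ratios. The code was tested on simulated data for 3 against 0 dpa. It recovered 57% of genes and 21.4% of pairs with a log2 change of 1, and 91% and 85% with a change of 2. In that simulation 200 of 11272 genes and 34 of 1029 pairs had changed, a far smaller share than was called in the data. These rates are therefore no measure of the power of the tests here. A gene or pair that did not pass may still have changed. Tests were two-sided, Benjamini-Hochberg adjusted over all genes or all pairs, at a threshold of 0.05. Log2 changes are ± standard error and understate those of low genes.

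The members and lists were chosen with earlier results of these data known. By rule, full statistics went to sema3d and, per family (12 in all), to at most 3 called members that changed most. These averaged 2 TPM or more in the higher group. From the partner and effector lists the 4 largest changes at 3 dpa were taken. The called members sema3bl, sema3h, sema6ba, ntn1b and efna3b fell outside this rule, and their changes are given as well. Alternatives varied the pseudocount (0.1 or 5), the filter (none, or a mean from 5 TPM up), scaling by median of ratios, a block for the replicate number, fits of only the libraries compared, and omission of each library. Omitting 4 libraries, and the block with scaling or within 0 and 3 dpa, were chosen after seeing the data. The labels do not link replicate numbers across times. Same-numbered libraries of 0 and 3 dpa deviated together across genes only weakly (r = 0.301, 0.285 and 0.175). The replicate block treats same-numbered libraries as linked, and whether they are is unknown.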

Additional observations from a re-analysis of the deposited data

Results flagged for a closer look

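For 22 of the members given full statistics, the change from 0 dpa differed between 3 and 14 dpa, tested as the contrast of 14 against 3 dpa in limma. Apart from sema3d, these members were chosen for passing in 1 of 5 contrasts, this one among them. Their count is therefore no result about the set. Over all 61 members 22 were lower and 1 higher at 14 dpa, against 14.3% and 19.8% of all genes. No explanation is weighed here. In log2 units the difference was -1.65 for sema3d, -1.13 for sema3gb, -0.83 for sema3e, -1.56 for sema4c and -1.75 for sema5a. It was -1.77 for nrp2a, -1.11 for nrp1b, -1.38 for nrp2b, -1.35 for plxna3, -0.92 for plxnd1 and 0.63 for plxnb2b, the 1 gene that went up. Among Eph and ephrin genes it was -1.16 for epha4a, -1.30 for epha7, -0.73 for efnb2b, -1.23 for ephb4a and -1.35 for ephb3a. It was -0.38 for slit3, -0.84 for slit2, -2.07 for robo3, -1.52 for robo1, -2.45 for unc5b and -1.45 for unc5c. The low gene sema6ba, outside that set, gave -0.69 (adjusted p = 0.0128), or 0.119 without 14 dpa replicate 1. The adjusted p of epha4a, 0.0491, rose to between 0.0510 and 0.169 under 13 of 23 alternatives. Calls were also lost for slit3 under 7 alternatives (adjusted p up to 0.166), sema3gb under 5 (0.152), plxnd1 under 4 (0.214), sema3e, efnb2b and plxnb2b under 3 each (0.0992, 0.234 and 0.123), epha7 under 2 (0.0822) and slit2 under 1 (0.139). For slit3 the omission of 1 library did so for 3 dpa replicates 2 and 3, 7 dpa replicates 1 and 3, 10 dpa replicate 3 and both of 14 dpa. For sema3gb and plxnd1 it did so for 3 dpa replicates 1 and 2 and both of 14 dpa, for sema3e for 3 dpa replicate 1 and both of 14 dpa, and for efnb2b for 3 dpa replicates 1 and 2 and 14 dpa replicate 2. For epha7 it did so for both of 14 dpa, and for slit2 for 14 dpa replicate 1.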

How the results depend on the processing

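Of 131 results under 3020 alternative values, 2838 kept direction and side of the threshold, 182 lost the call and 0 reversed; 94 results kept both throughout. All 131 were calls of the main fit, so none could gain a call. The alternatives reuse the same libraries, and many omit a library of a time outside the contrast, so these totals are no independent support. At 14 against 0 dpa the count of higher members was 3 with rescaled libraries, 3 in a fit of only these libraries, 3 with block and rescaling, and 17 without the 4 libraries that stand apart. At 7 dpa the count of lower members was 0 with the block and 0 with only the libraries compared. At 14 against 3 dpa the higher count was 2 with the block, 4 with only those libraries, 4 without the 4 libraries and 2 with block and rescaling. Without the 4 libraries only replicate 1 of 10 dpa remained, so no count at 10 dpa is read from that fit. With a mean of at least 5 TPM, 5 of 8 pairs tested changed at any time, in place of 8 of 11, and it was 7 of 11 with a pseudocount of 5 and 7 of 11 with the block. The cause of these shifts was not tested.

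With 1 library omitted, higher and lower counts ranged from 29 to 34 and 1 to 4 at 3 dpa, 26 to 33 and 0 to 1 at 7 dpa, 21 to 28 and 0 to 0 at 10 dpa, and 4 to 13 and 0 to 1 at 14 dpa. From 3 to 14 dpa they ranged from 0 to 3 and 14 to 28. Members changed at any time numbered 33 to 39, and pairs 7 to 9, or 8 to 10 at 3 dpa.

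The replicate block gave 30 higher and 4 lower members at 3 dpa. Limited to the 0 and 3 dpa libraries, it ended the 3 dpa calls of efna3b (adjusted p = 0.0613) and of the ephb3 pair (0.0649) and no other. Over all times, 26 same-numbered pairs correlated at -0.772 to 0.571, 10 of them above 0.1, and 2 of 14 libraries correlated best with their own number. Depth is unknown, so genes near 1 TPM carry an unknown counting error.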

Other observations

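Several members were high in the libraries that stand apart, in which immediate early genes were also high (fosb at 886 to 1700 TPM against 23.0 to 144), and the part of these in the values below was not tested. At 0 dpa ephb4b was at 259 TPM in replicate 1 and at 58.2 and 31.6 in the others. The same library held 95.1 TPM of sema4e, against 24.6 and 27.9, 61.8 of sema6dl, against 24.9 and 15.8, and 49.8 of sema3ga, against 17.4 and 11.8. At 7 dpa sema3aa was at 67.2 TPM in replicate 2 and at 28.8 and 26.8 in the others. At 10 dpa sema3fa was at 38 and 50.1 TPM in replicates 2 and 3 and at 10.4 in replicate 1. None of these genes passed in any of the 5 contrasts, and they were picked after their values were seen. By contrast epha4a was lower in replicates 2 and 3 of 10 dpa, at 12.5 and 11.3 TPM, than in replicate 1, at 29.0.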
